A study of Mus musculus with 39 samples.

Results

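The antigen presentation genes of MHC class II were followed as a group of 8 genes out of the 55357 in each deposited table: H2-Aa, H2-Ab1, H2-Eb1, H2-DMa, H2-DMb1, Cd74, Ciita and Ctss. They were taken by name, through the Ensembl gene IDs of the tables, and not by any measured value. All 8 were found in both tables and passed the filter on low values in both tissues, at least 1 FPKM in at least 4 libraries. FPKM counts sequenced fragments relative to transcript length and library size. The libraries came from mRNA-enriched RNA of lung and colon of C57BL/6N mice with acute pancreatitis (AP group) or after sham treatment. Of the 39 libraries, 5 each were from KO AP lung, KO sham lung, WT AP lung, WT sham lung, KO sham colon, WT AP colon and WT sham colon, and 4 were from KO AP colon. KO mice lacked Cd177, which encodes a glycoprotein on neutrophils, and WT mice carried it. The age and sex of the mice, the way pancreatitis was induced and the way Cd177 was deleted are not given in the labels. Nothing in the labels says that each library came from a separate animal, so all p-values measure the spread between these libraries.

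MHC class II molecules are pairs of an alpha and a beta chain that carry peptides to the surface of antigen-presenting cells, where CD4+ T cells read them. The chains assemble around the invariant chain, Cd74, which the protease cathepsin S, Ctss, trims in endosomes. The remaining fragment is exchanged for a peptide by H2-DM, made of H2-DMa and a DM beta chain. B cells, dendritic cells and macrophages express the set constitutively or readily, and epithelial cells of lung and gut can be induced to do so by interferon gamma. Transcription of the class II genes depends on the coactivator Ciita, which docks on a complex of RFX, CREB and NF-Y proteins bound to the X and Y boxes of their promoters. C57BL/6 mice carry a defective alpha chain gene for the second class II molecule of the mouse, so that the partner of H2-Eb1 is not made, and the tables list this gene, H2-Ea-ps, at 0 in all 20 lung libraries and in 18 of 19 colon libraries.

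The promoters of 4 of the genes are shown: H2-Aa, H2-Eb1 and H2-DMb1, which were lower in KO colon, and Ctss, which did not pass there. The choice followed the colon results, and no link between promoter and level was tested. They are the 250 bases before the annotated start, from RefSeq on GRCm38.p6, read along the gene. Capitals mark matches on either strand to the core of the Y box, ATTGG, or of the X box, AGNAAC.

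H2-Aa, chr17:34287824-34288073, minus strand: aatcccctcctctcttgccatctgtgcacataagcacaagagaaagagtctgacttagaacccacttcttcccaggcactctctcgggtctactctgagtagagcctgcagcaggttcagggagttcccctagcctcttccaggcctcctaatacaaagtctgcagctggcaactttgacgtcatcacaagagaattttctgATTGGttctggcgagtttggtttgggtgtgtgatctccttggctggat

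H2-Eb1, chr17:34305617-34305866, plus strand: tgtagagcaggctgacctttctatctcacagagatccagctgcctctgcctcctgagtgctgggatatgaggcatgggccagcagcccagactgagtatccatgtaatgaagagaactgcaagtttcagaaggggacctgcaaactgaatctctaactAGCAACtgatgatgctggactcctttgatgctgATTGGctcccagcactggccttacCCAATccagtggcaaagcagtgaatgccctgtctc

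H2-DMb1, chr17:34152941-34153190, plus strand: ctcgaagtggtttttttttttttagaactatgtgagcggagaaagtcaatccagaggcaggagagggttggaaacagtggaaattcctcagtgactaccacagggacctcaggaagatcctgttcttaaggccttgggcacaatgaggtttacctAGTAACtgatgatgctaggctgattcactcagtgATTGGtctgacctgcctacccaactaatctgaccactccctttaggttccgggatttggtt

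Ctss, chr3:95526536-95526785, plus strand: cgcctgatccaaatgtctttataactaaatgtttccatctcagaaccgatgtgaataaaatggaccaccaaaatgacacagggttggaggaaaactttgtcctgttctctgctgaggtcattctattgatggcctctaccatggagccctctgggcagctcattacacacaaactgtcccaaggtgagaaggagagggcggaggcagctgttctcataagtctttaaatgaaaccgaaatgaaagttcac

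AGNAAC was found in 42.3% of all promoters. In the promoters of H2-Eb1 and H2-DMb1 the X core preceded the Y core on the same strand, with 27 and 28 bases between them. Such a pair, with 10 to 30 bases between, was present in 1.01% of 32851 promoters of the same length. The H2-Aa window held the Y core alone, which was in 33.8% of all promoters, and the Ctss window held neither core. These matches describe the letters in the windows only. H2-DMa, not shown, was lower in KO colon as well. It had an entry for each of 2 starts, with no match in the first and a Y core in the second. No window of H2-Ab1, Cd74 or Ciita was examined.

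Defining genes of the tissues stood as labelled. The surfactant gene Sftpc was between 10205 and 71298 FPKM in lung and at most 0.157 FPKM in colon. Cd177 was listed at 0 in all 10 KO lung and all 9 KO colon libraries, against 1.3 to 4.18 FPKM in WT lung and 38.5 to 76.4 FPKM in WT colon. The exact two-sided permutation p was 0.00794 in each tissue and treatment but colon AP, where it was 0.0159. Both are the smallest values these group sizes allow. The smallest steps between low FPKM values put the depth, in units of 10 to the power 6 reads, at 77.0 to 95.4 in KO lung, against 57.9 to 71.2 in WT lung, and at 77.7 to 98.5 in KO colon, against 55.5 to 78.3 in WT colon. KO lung libraries also resembled their own group less, with mean correlations of 0.929 to 0.962 against 0.968 to 0.988 in WT lung. Colon libraries gave 0.934 to 0.954 in KO and 0.942 to 0.975 in WT. In lung neither depth nor this correlation overlapped between KO and WT. Genotype and any difference in how the libraries were made or sequenced cannot be told apart there. Differences were tested with limma on log2(FPKM + 1), each tissue alone, with Benjamini-Hochberg adjustment over all genes tested, 15978 in lung and 15001 in colon. The threshold was an adjusted p of 0.05, and a log2 difference on this scale understates that of low genes.

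In colon with pancreatitis the class II genes were far lower in KO than in WT mice. By the ratio of mean FPKM, H2-Aa, the alpha chain of the class II molecule that C57BL/6 mice make, fell 7.71-fold and its beta chain partner H2-Ab1 fell 8.63-fold. Cd74, the invariant chain, fell 8.49-fold, H2-DMa fell 5.5-fold and the coactivator Ciita fell 9.04-fold, while H2-DMb1 averaged 6.02 FPKM in KO AP and 60.3 FPKM in WT AP. Ctss, which also serves endosomal proteolysis outside this pathway, did not pass the test. Thus 7 of 8 genes passed, each lower in KO, where 18.3% of all genes tested passed in either direction and 10.9% were lower. The mitochondrial share of FPKM was 10.6 to 19.1% in KO AP and 7.02 to 11.6% in WT AP, and its part in these differences was not tested.

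H2-Aa was 38.4, 68.9, 27.2 and 124 FPKM in KO AP colon, against 468, 837, 515, 170 and 504 FPKM in WT AP colon. The groups did not overlap, and WT AP replicate 4 was the lowest of the WT libraries. Its log2 difference was -2.99 ± 0.66 (SE; adjusted p = 0.00589, limma). H2-Ab1 was 29.1, 68.4, 24 and 116 FPKM in KO AP, against 536, 793, 503, 207 and 516 FPKM in WT AP, again without overlap, a log2 difference of -3.25 ± 0.61 (adjusted p = 0.00225, limma). H2-Eb1, a beta chain without its alpha chain in this strain, was 21.7 to 87.2 FPKM in KO AP and 142 to 470 FPKM in WT AP, a log2 difference of -2.80 ± 0.54 (adjusted p = 0.00281, limma).

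Cd74 was the most abundant of the 8 genes in every WT colon library. It was 111, 175, 70.2 and 270 FPKM in KO AP colon, against 1298, 2040, 1352, 466 and 1493 FPKM in WT AP colon. Its median rank among all genes, counted from the highest FPKM, was 569 in KO AP and 36 in WT AP, and the log2 difference was -3.10 ± 0.67 (adjusted p = 0.00522, limma). The DM genes kept to the same order of groups. H2-DMa was 7.14 to 15.7 FPKM in KO AP and 21.5 to 78.1 FPKM in WT AP, a log2 difference of -2.27 ± 0.54 (adjusted p = 0.00888, limma). H2-DMb1 was 3.42 to 9.97 FPKM in KO AP and 22.2 to 87.6 FPKM in WT AP, a log2 difference of -3.07 ± 0.62 (adjusted p = 0.00366, limma). Reads of H2-DMb1 and of its near copy H2-DMb2 may have been split between them by the authors' counting, so both levels are uncertain.

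Ciita was 0.659, 0.893, 0.826 and 1.92 FPKM in KO AP colon, against 8.92, 17.1, 8.84, 2.98 and 10.8 FPKM in WT AP colon. The ranges did not overlap, and the log2 difference was -2.25 ± 0.55 (adjusted p = 0.00961, limma). Ctss was 252, 232, 253 and 185 FPKM in KO AP, against 296, 349, 310, 213 and 305 FPKM in WT AP. Its groups overlapped, and the log2 difference of -0.34 ± 0.22 did not pass (adjusted p = 0.279, limma). Counted by ranges, 7 of the 8 genes were lower in KO AP without overlap, where 8.61% of all colon genes were. The median log2 difference over the 8 genes was -2.90, against -0.01 over all genes tested, and in sham it was -1.85, against 0.01.

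**Figure D1:**
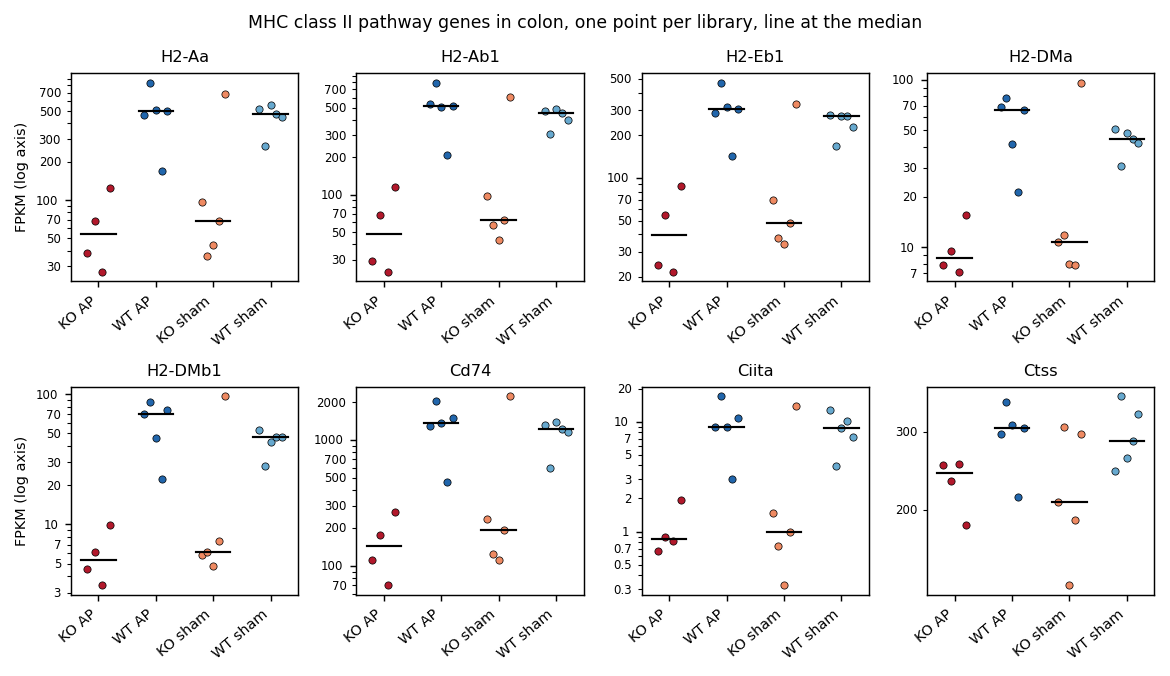
FPKM of the 8 genes in each colon library on log axes, by group, with a line at the group median. The 4 KO AP libraries lie below all 5 WT AP libraries for every gene but Ctss, and KO sham replicate 5 lies above every WT sham library for the same 7 genes.

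In sham colon the same 7 genes passed and were lower in KO, where 31.4% of all genes passed and 15.4% were lower. Here 1 library decided the size. H2-Aa was 97.1, 36.2, 44.3, 68.2 and 687 FPKM in KO sham colon, against 521, 264, 554, 478 and 451 FPKM in WT sham colon. The value of 687 FPKM belonged to KO sham replicate 5, which exceeded all WT sham libraries, so that none of the 8 genes was lower in KO sham without overlap, where 8.15% of all colon genes were. H2-Aa differed by -2.21 ± 0.63 on the log2 scale (adjusted p = 0.0129, limma) and by -2.92 without that library (adjusted p = 0.000368, limma). KO sham replicate 5 was listed at 0 for Cd177, as its genotype label says.

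Cd74 was 237, 124, 112, 193 and 2235 FPKM in KO sham colon, against 1321, 599, 1399, 1225 and 1167 FPKM in WT sham colon, with 2235 FPKM in replicate 5. Its log2 difference was -2.02 ± 0.63 with all libraries (adjusted p = 0.0225, limma) and -2.78 without replicate 5. Ciita was 1.46, 0.746, 0.325, 0.987 and 13.8 FPKM in KO sham and 12.7, 3.92, 8.78, 10.1 and 7.18 FPKM in WT sham. The coactivator was thus high in the 1 KO library in which the chains were high, with a log2 difference of -1.70 ± 0.51 over all libraries (adjusted p = 0.0186, limma) and -2.30 without it. H2-Ab1 differed by -2.06 ± 0.57, H2-Eb1 by -1.80 ± 0.51, H2-DMb1 by -1.89 ± 0.59 and H2-DMa by -1.41 ± 0.51 (adjusted p from 0.0117 to 0.0427, limma). Ctss did not pass, at -0.43 ± 0.20 (adjusted p = 0.114, limma), but was lower at -0.62 under TPM scaling, -0.53 under upper quartile scaling and -0.46 with library weights (adjusted p = 0.0215, 0.0394 and 0.0475, limma). The 7 genes also passed without KO sham replicate 5, while leaving out KO sham replicate 2 or 3 left 3 of them past the threshold, H2-Aa, H2-Ab1 and H2-Eb1.

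KO sham replicate 5 also stood apart from the other KO sham libraries for some genes upstream of Ciita and for some leukocyte genes. Ifng, interferon gamma itself, was 7.12 FPKM in it and at most 0.575 FPKM in the other KO sham libraries, and Socs1, a feedback inhibitor of interferon signalling, was 36.3 FPKM against at most 11.4 FPKM. The T cell receptor component Cd3e was 7.8 FPKM against at most 0.817 FPKM, and the macrophage complement gene C1qa was 98.1 FPKM against at most 40.8 FPKM.

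Markers of other cell types moved with the class II genes in colon. Fewer cells of a type and less RNA per cell cannot be told apart in these bulk samples. Among all colon genes tested, 10.9% were lower in KO in AP and 15.4% in sham. Of 10 T cell markers all 10 were lower in KO in AP and all 10 in sham. Their summed level was 3.27 to 9.68 FPKM in KO AP and 23.4 to 188 FPKM in WT AP. Cd4, the coreceptor that reads class II, was 0.737 ± 0.388 FPKM in KO AP (SD, n = 4) and 7.25 ± 5.31 FPKM in WT AP (SD, n = 5), a log2 difference of -2.03 ± 0.38 (adjusted p = 0.00236, limma). Of 10 pan-leukocyte genes 9 were lower in AP and 6 in sham, Ptprc, the CD45 antigen, among them in AP at -2.10 ± 0.46 (adjusted p = 0.00542, limma). Without KO sham replicate 5 the sham count of pan-leukocyte genes was 9.

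Among cells that present antigen by class II, the macrophage and monocyte list had 9 of 12 genes lower in KO in AP and 10 of 12 in sham. The shares over all colon genes were 10.9% lower in AP and 15.4% in sham. Cx3cr1, a chemokine receptor of intestinal macrophages, was 0.773 ± 0.371 FPKM in KO AP (SD, n = 4) and 3.46 ± 1.61 FPKM in WT AP (SD, n = 5), a log2 difference of -1.28 ± 0.21 (adjusted p = 0.00106, limma). C1qa differed by -2.04 ± 0.38 in AP (adjusted p = 0.00235, limma). The dendritic cell list had 5 of 7 tested genes lower in AP and 4 of 7 in sham. Batf3, a factor of conventional dendritic cells, differed by -1.08 ± 0.24 in AP (adjusted p = 0.00542, limma) and Ccr7, their homing receptor, by -1.17 ± 0.31 (adjusted p = 0.015, limma). Of 11 tested B cell markers none passed in AP or in sham. Their summed level was 7.8 to 47.9 FPKM in KO AP and 8.75 to 65.3 FPKM in WT AP, with a median log2 difference of -0.20 over the list, against -0.01 over all genes. The part of any of these cell types in the lower class II levels was not tested.

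**Figure D2:**
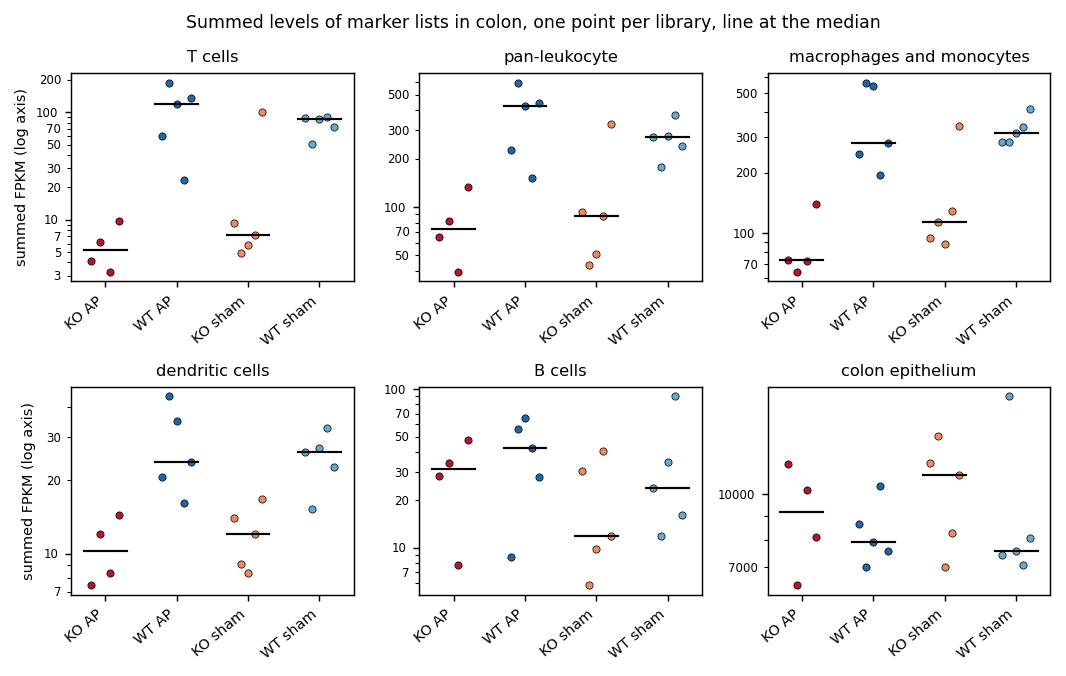
Summed FPKM of 6 marker lists in each colon library on log axes, by group, with a line at the group median. T cell, macrophage and dendritic cell sums are lower in KO AP than in every WT AP library, B cell and epithelial sums overlap, and KO sham replicate 5 has the T cell sum of 100 FPKM.

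Among all colon genes tested, 18.3% passed in AP, 10.9% lower, and 31.4% in sham, 15.4% lower. Of 11 colon epithelium genes 3 were higher and 2 lower in KO in AP, and 1 was lower in sham. The median of the list was -0.38 in AP, against -0.01 over all genes, and -0.04 in sham, against 0.01. The anion exchanger gene Slc26a3 was higher at 1.79 ± 0.28 in AP and the mucin gene Muc2 lower at -1.65 ± 0.45 (adjusted p = 0.000889 and 0.0178, limma). Endothelial genes were lower too, 8 of 10 in AP and 6 of 10 in sham.

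Counts of other class II pathway genes in colon stand beside 10.9% of all genes tested lower in AP and 15.4% in sham. In AP the counts of the chain and loading genes and of the promoter proteins were near that share. Of 8 tested genes outside the 8 members that encode chains or loading factors, only March1 was lower in AP. It encodes a ubiquitin ligase that removes class II molecules from the surface, and its means were 0.305 FPKM in KO and 1.74 FPKM in WT (adjusted p = 0.0123, limma). In sham 1 of these 8 genes was higher and 1 lower. The B cell-restricted chains of H2-DO, H2-Oa and H2-Ob, gave log2 differences of -0.08 ± 0.42 and -0.37 ± 0.54 that did not pass. H2-DMb2, the near copy of H2-DMb1, was 4.3 ± 2.6 FPKM in KO AP (SD, n = 4) and 7.17 ± 3.27 FPKM in WT AP (SD, n = 5), also short of the threshold (adjusted p = 0.327, limma). Of 7 genes for proteins that hold Ciita at the promoter, Rfx5 alone was lower in AP, at -0.48 ± 0.16 (adjusted p = 0.0431, limma), and 3 were lower in sham. Upstream of Ciita, Ifng differed by -1.24 ± 0.50 in AP without passing (adjusted p = 0.0897, limma). Costimulatory genes were lower in 4 of 5 cases in AP, with Cd40 at -1.43 ± 0.31 (adjusted p = 0.00557, limma), and in 1 of 5 in sham.

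Pancreatitis itself left no class II gene past the threshold in colon. The 8 log2 differences of AP against sham ran from -1.01 to 0.08 in KO, where 6 genes of the whole table passed (0.0400%), and from -0.01 to 0.34 in WT, where none did (938 genes had an unadjusted p under 0.05). The KO difference farthest from 0, H2-Ab1 at -1.01 ± 0.61, was -0.36 without KO sham replicate 5. The difference between the AP responses, KO minus WT, ran from -1.18 to 0.09 and passed for no gene, with none in the whole table and 2821 at an unadjusted p under 0.05.

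In lung the genotype differences of the class II genes were smaller, except that of Ctss in AP. Genes that passed were lower in AP and higher in sham, and no gene passed in both arms. Ciita lay below 0 in both arms, at -0.99 and -0.53, and H2-DMa above 0 in both, at 0.13 and 0.99. The difference between the arms, given with the AP responses below, did not pass the test. With pancreatitis 3 of 8 genes were lower in KO, H2-Aa, Ciita and Ctss. In sham mice 4 of 8 were higher in KO, H2-Ab1, H2-Eb1, H2-DMa and H2-DMb1. Both counts stand in a table where KO and WT differed for 55.8% of all genes in AP, 28.1% lower, and for 58.8% in sham, 28.8% higher. The median over the 8 genes was -0.66 in AP, against 0.00 over all genes tested, and 0.70 in sham, against -0.01.

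H2-Aa was 174, 138, 214, 124 and 69 FPKM in KO AP lung, against 261, 276, 247, 202 and 207 FPKM in WT AP lung. Only KO AP replicate 3 reached the WT range, and the log2 difference was -0.81 ± 0.25 (adjusted p = 0.00966, limma). Ciita was 1.28, 2, 6.78, 2.15 and 0.53 FPKM in KO AP, against 8.33, 4.74, 5.45, 2.82 and 5.09 FPKM in WT AP. KO AP replicate 3 was again the KO library inside the WT range, and the difference was -0.99 ± 0.33 (adjusted p = 0.0165, limma). Ctss was 37.2, 22, 84.3, 36.8 and 23.3 FPKM in KO AP and 92.3, 88.3, 84.7, 50.5 and 72.7 FPKM in WT AP, a difference of -1.06 ± 0.27 (adjusted p = 0.0029, limma). Cathepsin S thus fell in lung, where it passed, while in colon it did not pass; the tissues were scaled separately and this contrast was not tested.

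The other 5 genes did not pass in lung with pancreatitis. H2-Eb1 differed by -0.63 ± 0.29 (adjusted p = 0.0713), Cd74 by -0.69 ± 0.36 (adjusted p = 0.112) and H2-Ab1 by -0.26 ± 0.26 (adjusted p = 0.404), all by limma. H2-DMa was at 0.13 ± 0.23 and H2-DMb1 at -0.15 ± 0.24. Without KO AP replicate 3 the count was 5 genes, with H2-Eb1 and Cd74 added. Without KO AP replicate 5, the lowest KO AP library for every gene but Ctss, or without WT AP replicate 1 it was 2, H2-Aa and Ctss. KO AP replicate 3 was also high for Cd274, an interferon-inducible checkpoint ligand, at 31.9 FPKM against 2.54 to 3.36 FPKM in the other KO AP lung libraries.

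**Figure D3:**
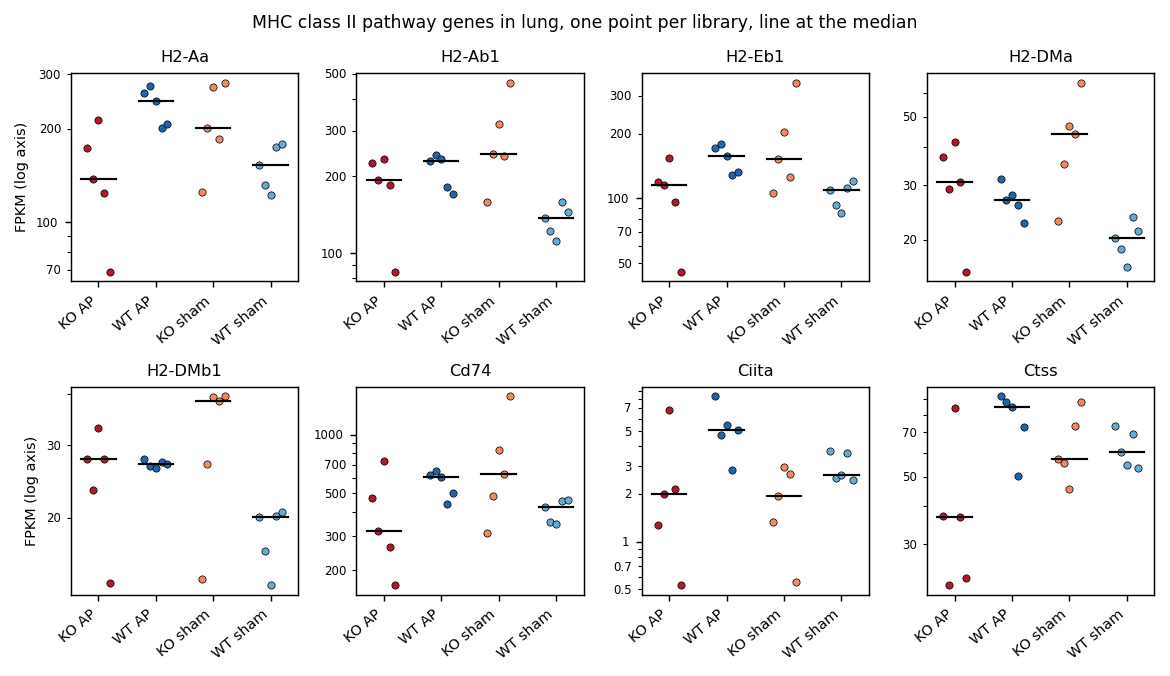
FPKM of the 8 genes in each lung library on log axes, by group, with a line at the group median. KO and WT ranges overlap for every gene in both arms, and WT AP libraries lie above all WT sham libraries for H2-Aa, H2-Ab1, H2-Eb1 and H2-DMb1.

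In sham lung most of the genes had higher means in KO. H2-Ab1 was 158, 244, 319, 240 and 462 FPKM in KO sham, against 137, 122, 112, 159 and 145 FPKM in WT sham. All but 1 KO library exceeded the WT libraries, a log2 difference of 0.99 ± 0.26 (adjusted p = 0.00307, limma). H2-DMa was 22.9, 35.2, 46.7, 43.9 and 64.6 FPKM in KO sham and 20.2, 18.7, 16.3, 23.7 and 21.3 FPKM in WT sham, a difference of 0.99 ± 0.23 (adjusted p = 0.00139, limma). H2-Eb1 at 0.72 ± 0.29 (adjusted p = 0.0394, limma) and H2-DMb1 at 0.69 ± 0.24 (adjusted p = 0.0171, limma) were higher as well. H2-Aa at 0.44 ± 0.25, Cd74 at 0.70 ± 0.36, Ciita at -0.53 ± 0.33 and Ctss at 0.01 ± 0.27 did not pass (adjusted p from 0.103 to 0.966, limma).

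Cd74 was 310, 486, 831, 624 and 1579 FPKM in KO sham lung and 422, 356, 345, 455 and 463 FPKM in WT sham lung, and Ciita was 1.33, 1.93, 2.96, 2.69 and 0.552 FPKM in KO sham and 3.75, 2.52, 2.62, 3.64 and 2.44 FPKM in WT sham. The library with the highest Cd74, KO sham replicate 5, thus had the lowest Ciita of its group. It was also the highest KO sham library for Sftpc, at 71298 FPKM, and had the fewest genes above 0 of that group, 21471. Without it H2-Eb1 was 0.46 (adjusted p = 0.134) and no longer passed, and without KO AP replicate 3, KO sham replicates 4 and 5, the 3 libraries with an own-group correlation below 0.94, H2-Ab1 and H2-DMa alone passed.

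Transcript length moved with the genotype in lung. In KO against WT the median log2 difference of genes with a longest transcript under 1500 bases was 0.30 in AP and 0.45 in sham, and that of genes with 5000 bases or more was -0.36 and -0.49. H2-Ab1 with 1212 bases, H2-DMb1 with 1404 bases, Cd74 with 1410 bases and Ctss with 1355 bases fell in the short class, H2-Eb1 with 1669 bases in the next, whose medians were 0.20 and 0.23, and Ciita with 6007 bases was the longest of the 8. In AP H2-Ab1 at -0.26, H2-DMb1 at -0.15, Cd74 at -0.69 and Ctss at -1.06 lay below 0, their class median above it. Only Ctss of these passed. In sham H2-Ab1 at 0.99, H2-DMb1 at 0.69 and Cd74 at 0.70 lay above 0, as their class median did, and Ctss was at 0.01. Cd74 and Ctss did not pass there. H2-DMa with 2005 bases, in the class of H2-Eb1, was at 0.13 in AP and at 0.99 in sham, where it passed. H2-Aa with 3223 bases was at -0.81 in AP, where it passed, and at 0.44 in sham. Its class medians were -0.10 in AP and -0.15 in sham. Ciita lay below 0 with its class in both arms, at -0.99 in AP, where it passed, and at -0.53 in sham. In colon the medians of genes under 1500 bases and of those with 5000 bases or more were -0.01 and -0.06 in AP. In sham they were 0.21 and -0.28. The part of length in the lung differences was not tested. Scaling each library to a fixed FPKM total, as in TPM, moved the median of all lung genes to -0.18 in AP and -0.26 in sham and the called genes to 2965 higher and 5492 lower in AP, against 4412 higher and 4496 lower without it. In sham lung the split was 2891 higher and 6209 lower, against 4606 higher and 4787 lower. In colon the same scaling gave medians of -0.13 in AP and -0.15 in sham, with 541 higher and 1762 lower in AP, against 1106 higher and 1637 lower, and with 1249 higher and 2683 lower in sham, against 2398 higher and 2306 lower. The 7 colon genes passed under it in both arms. Under that scaling 5 of the 8 genes were lower in lung AP, with H2-Eb1 at -0.83 and Cd74 at -0.90, where 52.9% of all genes passed, and in sham H2-Ab1 at 0.71 and H2-DMa at 0.73 were higher, where 57.0% passed.

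**Figure D4:**
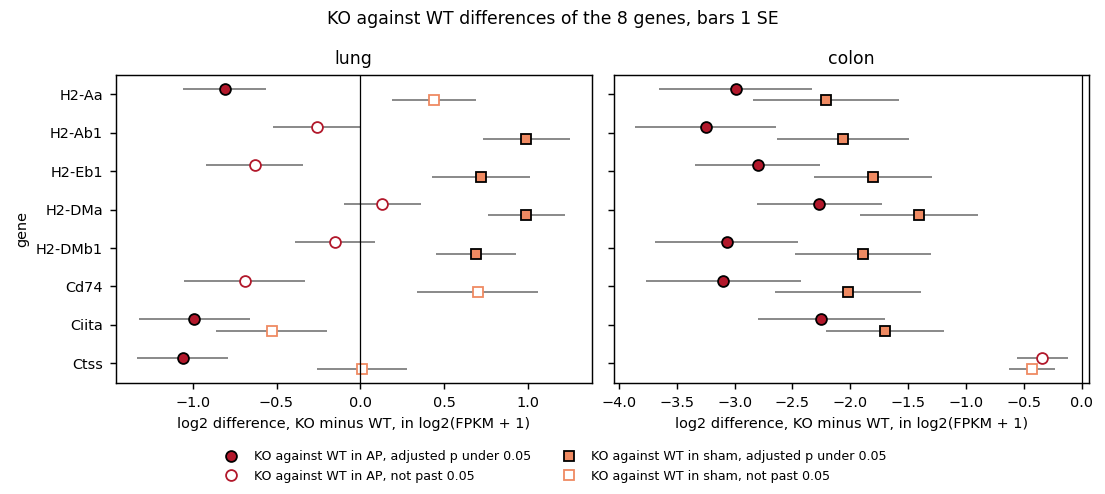
Log2 differences of KO minus WT in log2(FPKM + 1) for each gene, with bars of 1 SE, in AP (circles) and sham (squares), in lung (left) and colon (right, on its own scale). Filled symbols have an adjusted p under 0.05. In colon 7 genes lie between -1.41 and -3.25 in both arms, and in lung the sham difference of each of the 8 genes lies to the right of that in AP and Ciita lies left of 0 in both.

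Genes of the marker lists in lung also passed, where 28.1% of all genes were lower in AP and 4787 of 15978 in sham. T cell markers were lower in KO for 10 of 10 genes in AP and 5 of 10 in sham, and pan-leukocyte genes for 9 of 10 in AP and 2 of 10 in sham. Macrophage and monocyte genes were lower for 7 of 12 in AP, and in sham 3 were higher and 4 lower. Alveolar macrophage genes were lower for 7 of 9 in AP and 4 of 9 in sham. Of the B cell markers 4 of 11 were lower in AP and 1 in sham, with Ms4a1, the CD20 antigen, at -1.47 ± 0.26 in AP (adjusted p = 0.000131, limma). Of 9 dendritic cell genes 3 were lower in AP and 6 did not pass, and in sham 2 were higher and 2 lower. The list median in AP was -0.35, against 0.00 over all genes. Itgax, the integrin CD11c, was lower in AP at -1.29 ± 0.20 (adjusted p = 3.92e-05, limma). Among the 6, Batf3 reached higher in KO, at 2.15 to 6.86 FPKM in KO AP against 1.82 to 3.7 FPKM in WT AP. Cd209a did too, at 2.91 to 6.57 against 2.26 to 4.57 FPKM. Alveolar type 2 genes, whose cells express class II in the mouse lung, were lower for 8 of 10 in AP and 7 of 10 in sham, and endothelial genes for 5 of 10 in each arm with 1 higher. Summed FPKM of the T cell list was 9.75 to 24.5 in KO AP and 40.9 to 150 in WT AP. In sham mice the T cell sum spanned 17.2 to 96.9 in KO lung, against 51.3 to 111 in WT lung, while the pan-leukocyte sum spanned 212 to 696 in KO lung, against 297 to 472 in WT lung. The part of these cell types in the class II levels was not tested.

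The counts of this paragraph stand beside 55.8% of all lung genes passing in AP, 28.1% lower, and 58.8% in sham, 28.8% higher. Upstream of Ciita, the interferon gamma list in lung had 4 of 7 tested genes lower and 1 higher in KO in AP. Ifngr1, the receptor chain that binds interferon gamma, was 46.4 ± 3.66 FPKM in KO AP and 106 ± 6.33 FPKM in WT AP (SD, n = 5 each), and differed by -1.17 ± 0.15 on the log2 scale (adjusted p = 4.35e-06, limma). Jak1, a kinase of that receptor, was lower at -1.29 ± 0.16 (adjusted p = 5.07e-06, limma) and Socs1 higher at 0.68 ± 0.18 (adjusted p = 0.00382, limma). In sham the list gave 3 lower and 1 higher, with Ifngr1 and Jak1 again lower and Socs1 again higher. The part of these genes in the class II levels was not tested. Of the 7 promoter proteins 3 were lower in AP, the NF-Y subunits Nfya at -0.51 ± 0.13 and Nfyb at -0.32 ± 0.10 and Creb1 at -0.54 ± 0.12 (adjusted p = 0.0036, 0.0118 and 0.000699, limma), and 2 in sham. Of 7 tested chain and loading genes outside the 8, Ifi30, a reductase that prepares antigen for loading, was higher in AP at 0.46 ± 0.13 (adjusted p = 0.00441, limma), and March1 and H2-Ob were lower. In sham 3 of the 7 were higher and 1 was lower. Costimulatory genes were lower for 3 of 5 in AP, and in sham 1 was higher and 1 lower.

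Pancreatitis raised no class II gene past the threshold in lung when all genes were tested, but the WT libraries separated by range. H2-Aa was 261, 276, 247, 202 and 207 FPKM in WT AP, all above the 153, 132, 122, 175 and 179 FPKM of WT sham. H2-Ab1 was 170 to 241 FPKM in WT AP against 112 to 159 FPKM in WT sham, H2-Eb1 129 to 180 against 85.6 to 120 FPKM, and H2-DMb1 26.5 to 27.8 against 13.7 to 20.7 FPKM. These 4 of 8 genes were higher in AP without overlap, where 1.21% of all lung genes were. The 8 log2 differences lay between 0.29 and 0.65, H2-Aa highest at 0.65 ± 0.25 (adjusted p = 0.602, limma), and 0.0814% of all genes passed. The same fit with a weight for each library called all 8 higher, where it called 10.3% of all genes, and a fit of the WT AP and WT sham libraries alone called 3, H2-Aa, H2-Ab1 and H2-DMb1, where it called 0.688%. The median over the 8 genes was 0.56, against -0.01 over all genes tested. The pan-leukocyte list had a median of 0.54 in the same comparison, with none of its 10 genes past the threshold.

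In KO lung the same comparison gave differences from -0.93 to 0.15, 7 of 8 below 0, and none passed, where 0.0125% of all genes did. H2-Aa was -0.61 ± 0.25 (adjusted p = 0.294, limma). The difference of the AP responses, KO minus WT, was -1.25 ± 0.35 for H2-Aa, -1.25 ± 0.37 for H2-Ab1, -1.34 ± 0.41 for H2-Eb1 and -1.39 ± 0.51 for Cd74. None of the 8 passed over all genes (adjusted p from 0.442 to 0.746, limma), as no gene of the table did, with 1384 at an unadjusted p under 0.05. With a weight for each library 5 of the 8 passed, all negative, where 1.92% of all genes did. KO against WT and AP against sham share groups here, so these values are not independent of one another.

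Ratios to H2-Aa within a library do not depend on how libraries were scaled. In lung the ratio of H2-Ab1 to H2-Aa was 1.29, 1.4, 1.08, 1.49 and 1.23 in KO AP, against 0.873, 0.873, 0.938, 0.897 and 0.821 in WT AP. In sham it was 1.26, 1.21, 1.16, 1.29 and 1.64 in KO, against 0.899, 0.923, 0.918, 0.91 and 0.813 in WT. The beta chain thus exceeded the alpha chain in all 10 KO lung libraries and in none of the 10 WT lung libraries. The exact two-sided permutation p was 0.00794 in each arm, the smallest for 5 against 5, and 0.0741 after adjustment over the 56 ratios tested, of which none passed. H2-DMa to H2-Aa was likewise higher in KO without overlap, 0.195 to 0.248 in KO AP against 0.0973 to 0.128 in WT AP, with a sham mean of 0.197 in KO against 0.132 in WT. H2-Aa has a longest transcript of 3223 bases, H2-Ab1 of 1212 bases and H2-DMa of 2005 bases, so that these ratios also compare longer with shorter transcripts, whose part was not tested. In colon the ratio of H2-Ab1 to H2-Aa averaged 0.886 in KO AP and 1.06 in WT AP, with overlap. The colon ratio of Ctss to H2-Aa was 1.49 to 9.31 in KO AP and 0.417 to 1.26 in WT AP, without overlap (exact two-sided permutation p = 0.0159, the smallest for 4 against 5; adjusted p = 0.0889).

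**Figure D5:**
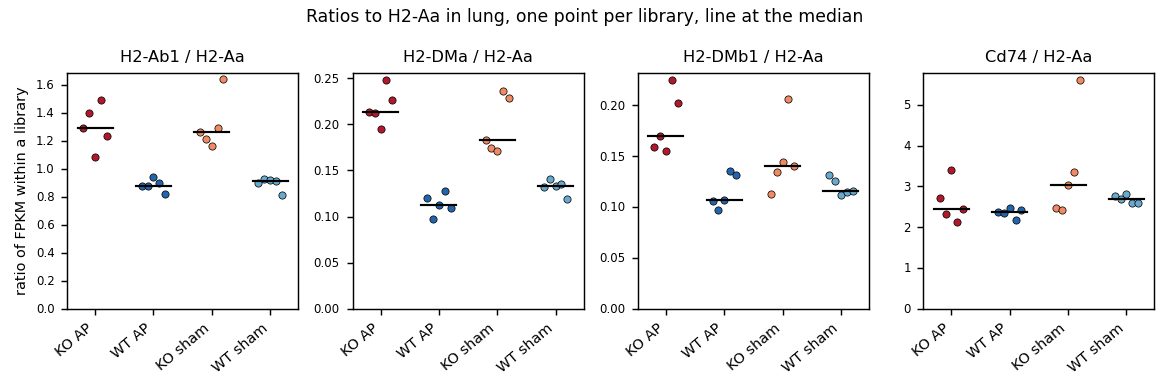
Ratios of the FPKM of 4 genes to that of H2-Aa within each lung library, by group, on linear axes from 0, with a line at the group median. H2-Ab1 and H2-DMa ratios of KO libraries lie above those of WT libraries in both arms, and Cd74 ratios overlap between KO and WT.

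Within groups the class II genes varied together from library to library. After removal of the group means, the members correlated with the mean of H2-Aa, H2-Ab1, H2-Eb1 and Cd74 at Pearson's r of 0.95 for H2-DMa, 0.83 for H2-DMb1, 0.60 for Ctss and 0.38 for Ciita over 20 lung libraries. Over 19 colon libraries r was 0.93 for H2-DMa, 0.95 for H2-DMb1, 0.94 for Ciita and 0.31 for Ctss. These are descriptions of values that share a library, its depth and its scaling. Without KO sham replicate 5, r for Ciita was 0.75 over 19 lung libraries and 0.85 over 18 colon libraries, so that its low value in lung rested on that library, and r for Ctss in colon was 0.00. The 5 genes of the whole table most like that mean were Trbc2 and Trbc1, constant chains of the T cell receptor, Selplg, Cd52 and Coro1a in colon, with r of 0.94 to 0.95, KO sham replicate 5 included. In lung they were Bace2, Cybrd1, Pcolce2, Rarres2 and Gna12, with r of 0.84 to 0.91. Rfx5 had an r of -0.57 in lung, or -0.28 without KO sham replicate 5, and 0.00 in colon, and was 1.54 FPKM in KO sham replicate 5 of lung, the library with the highest H2-Ab1.

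Set side by side, and without a test since each tissue was scaled alone, the genes had these levels across the 8 groups. H2-Aa averaged 144 ± 54.4 FPKM in KO AP lung, 214 ± 65.2 in KO sham lung, 239 ± 32.8 in WT AP lung and 152 ± 25.1 in WT sham lung (SD, n = 5 each). In colon it averaged 64.7 ± 43.5 FPKM in KO AP (n = 4), 187 ± 281 in KO sham, 499 ± 237 in WT AP and 454 ± 113 in WT sham (n = 5 each). Ordered by mean, neighbouring groups overlapped in range for each of the 8 genes in both tissues. For 7 genes the colon order of means was KO AP, KO sham, WT sham and WT AP from low to high. The place of KO sham above KO AP rested on KO sham replicate 5 for H2-Aa, H2-DMa and Ciita, whose KO AP means of 64.7, 10 and 1.07 FPKM exceeded KO sham means of 61.4, 9.63 and 0.878 FPKM without it. H2-DMb1 averaged 6.02 FPKM in KO AP, against 6.04 FPKM in the other 4 KO sham libraries. In lung KO sham held the highest mean for H2-Ab1, H2-Eb1, H2-DMa, H2-DMb1 and Cd74. Ciita was the lowest of the 8 genes in every group, and Cd74 the highest except in KO colon with AP, where Ctss at 231 ± 32 FPKM (n = 4) exceeded Cd74 at 157 ± 87.3 FPKM (n = 4). In KO sham colon that rank of Cd74 rested on replicate 5, since without it Cd74 averaged 166 FPKM and Ctss 210 FPKM.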

How the data were processed

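RNA of lung and colon was sequenced in 39 libraries. The authors deposited 1 FPKM table per tissue. Per the submitters' processing notes, HISAT2 2.1.0, StringTie 1.3.3b and the build mm39 were used; per the labels' protocols the libraries were made from enriched mRNA. Whether counting used strand is not given in the sources used here. Groups came from the labels of tissue, genotype and treatment, and no table column belonged to other samples. Ensembl IDs were given symbols through GENCODE M21 and RefSeq tables, which named 52081 of 55357 genes. Transcript lengths are the longest of a gene in GENCODE M21.

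Values were log2(FPKM + 1), kept where at least 4 libraries of a tissue reached 1 FPKM. The tables were normalized separately, so each tissue was fitted alone with limma 3.58.1 in R 4.3.3 on its 4 group means, with a variance trend, and 5 comparisons were taken from each fit. An FPKM table holds no counts: read totals were estimated from the smallest steps of the values and only describe depth. Ratios were tested by exact permutation in Python 3.11.15 with scipy 1.17.1 (numpy 2.4.6, pandas 2.3.3), and figures were drawn with matplotlib 3.10.9. The scripts were tested on simulated data. Replicate numbers were checked as a possible pairing and did not pair the samples.

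The members and lists were chosen with earlier results of these data known. Of each list, the counts and up to 4 genes with the lowest p in KO against WT with AP were to be named, besides Cd177, the members and the 5 genes most like them. Genes given for a single library, H2-Oa and H2-Ob in colon, and Batf3 and Cd209a in lung were named after their values were seen. Alternatives covered the pseudocount, the filter, scaling, variance trend, library weights, a replicate block, the groups fitted and each library left out. Results for some list genes are not reported here.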

Additional observations from a re-analysis of the deposited data

Results flagged for a closer look

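In each group of 4 or 5 libraries the highest and the lowest value of each of the 8 genes, and of Cd177 in WT, were set against the rest by Dixon's ratio, the gap to the nearest library over the whole range, and judged by its 95% critical value for that number of libraries. Of 68 combinations of a gene and a group, 9 had a library past it. The genes share libraries and vary together, so these 9 are not independent and cannot be set against a chance rate. In lung both were KO AP replicate 3. Ciita was 6.78 FPKM there, against 0.53 to 2.15 FPKM in the other 4 KO AP libraries, and Ctss was 84.3 FPKM, against 22 to 37.2 FPKM. In colon all 7 were KO sham replicate 5. It had 687 FPKM of H2-Aa, against 36.2 to 97.1 FPKM in the other 4 KO sham libraries, and 606 FPKM of H2-Ab1, against 43.4 to 98.4 FPKM. H2-Eb1 was 334 FPKM, against 33.9 to 70.2 FPKM, and Cd74 was 2235 FPKM, against 112 to 237 FPKM. H2-DMa at 96.3 FPKM, against 7.88 to 11.9 FPKM, and H2-DMb1 at 96.7 FPKM, against 4.79 to 7.45 FPKM, gave the highest ratios, 0.955 and 0.971. Ciita was 13.8 FPKM, against 0.325 to 1.46 FPKM.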

How the results depend on the processing

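The 7 colon genes lower in KO with AP passed under every alternative run. In sham colon 4 passed with no filter on low values and 4 when only the KO sham and WT sham libraries were fitted, 3 to 7 with 1 library left out, and 8, with Ctss added, under TPM scaling, upper quartile scaling and library weights. In lung with AP the count of 3 was 5 under TPM scaling, 5 with library weights, 5 without a set of 3 libraries (KO AP replicate 3, KO sham replicate 4 and KO sham replicate 5), and 2 to 5 with 1 library left out. In sham lung the count of 4 was 2 under TPM scaling, 2 without those 3 libraries, 6 with library weights, 3 with no filter on low values and 3 to 6 with 1 left out. For AP against sham no gene passed in WT lung, but 8 did with library weights and 3 with only the 2 groups fitted; in KO lung 0 to 1 passed with 1 library left out; the difference of the responses gave 5 with library weights. Settings without those 3 lung libraries, or without KO sham replicate 5 and WT sham replicate 2 of colon, and correlations and means without KO sham replicate 5, were chosen after seeing the data. The cause of these changes was not tested.

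Directions that turned were those of differences that had not passed. In lung, KO against WT with AP was -0.07 for H2-DMa and -0.15 for Nfyc under TPM scaling, and H2-DMb1 ran from -0.26 to 0.04 with 1 library left out. In sham lung, Ctss was -0.26 under TPM scaling, -0.03 under upper quartile scaling, -0.13 with library weights, -0.23 without the 3 libraries and -0.11 to 0.13 with 1 left out. For AP against sham in KO lung, Ciita was -0.20 with weights, -0.32 without the 3 libraries and -0.19 to 0.39 with 1 left out. In colon with AP, Creb1 in KO against WT ran from -0.08 to 0.00 with 1 library left out. For AP against sham in KO colon, H2-DMa was 0.02 and Ciita 0.14 without the 2 libraries, and with 1 left out H2-DMa ran from -0.85 to 0.02, Ciita from -0.73 to 0.14 and Ctss from -0.10 to 0.20. For AP against sham in WT colon, H2-Aa was -0.06 under TPM scaling, -0.03 under upper quartile scaling, -0.03 with weights and -0.17 without the 2 libraries; Cd74 was -0.09 and Ciita -0.13 without them, and Ctss 0.06; with weights Ciita was -0.04 and Ctss 0.10. With 1 library left out the ranges there were -0.21 to 0.36 for H2-Aa, -0.01 to 0.47 for H2-Ab1, -0.09 to 0.47 for Cd74, -0.13 to 0.41 for Ciita and -0.08 to 0.10 for Ctss. For the difference of the responses in colon, H2-Aa was 0.11 and Ciita 0.27 without the 2 libraries, Ctss was -0.01 with weights, and with 1 left out Ciita ran from -0.87 to 0.05 and Ctss from -0.08 to 0.21.

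The replicate numbers of the labels were also fitted as a replicate block. Same-numbered libraries deviated together, at a correlation over 0.1, in 6 of 30 pairs in lung and 7 of 27 in colon, with correlations of -0.32 to 0.386 and -0.524 to 0.465, so the numbers were not taken to pair samples. With the block, 3 genes passed in lung with AP, 3 in sham lung, where H2-Eb1 was lost, 7 in each colon arm and 0 in the AP against sham comparisons. FPKM gives no depth behind a value, so the error of low values such as Ciita in KO could not be bounded.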
